A study of Macaca mulatta with 2 samples.

Results

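Macrophage and myeloid marker genes were examined in hormone-treated Sertoli cell cultures of the rhesus macaque. The group was a list of 34 genes that mark testis macrophages and myeloid cells in general, and its members were the array probes whose gene name is on the list. Of the 34 genes, 32 were on the array under that name, out of 21495 gene names in all. They were represented by 51 of 34973 probes and by 71 of 51538 gene spots per array. LYVE1 and FCGR1A had no probe under those names.

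The study hybridised RNA from 2 primary Sertoli cell cultures to 2 one-colour arrays, 1 per group. The infant culture came from testes of males under 3 months of age. The pubertal culture came from juvenile males, 18 to 22 months old, brought into puberty through a catheter with gonadotropin-releasing hormone at 0.15 µg/min, given for 2 min every 3 h over 4 to 5 weeks. For 12 h both were exposed to testosterone (100 nM) and follicle-stimulating hormone (5 ng/ml), so neither is an untreated control. How many animals each culture pooled is not known here. With 1 array per group there was no replicate and no test, and animal, culture, age and the hormone pulses cannot be told apart.

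Macrophages are the most abundant leukocytes of the testis interstitium, and others lie against the wall of the seminiferous tubule. They depend on signalling through the colony-stimulating factor 1 receptor, take up debris through scavenger and Fc receptors, and exchange signals with Leydig and Sertoli cells. A Sertoli cell preparation starts from whole testis tissue, so cells of the interstitium and the tubule wall can be carried into the culture.

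The arrays carried human 60-base probes, and had to capture monkey RNA. The last 30 bases of the probes behind the largest differences are shown here. Each value rests on how well all 60 bases of a probe match the monkey transcript. They are given 5′ to 3′ as the files list them, numbered in the order of their probe names, and capitals mark AATAAA or ATTAAA, the hexamers that precede a poly(A) site.
CD163: catttttatggagttcttcttctcctagga
CSF1R: ctctgtccacATTAAActaacagcattaat
PTPRC probe 1: caacagatcatgaaattgggttATTAAAat
PTPRC probe 2: aaggttcataggaaaagacataaatgagga
CD53 probe 1: tggtgaagagacttgtttcatctccggaaa
CD53 probe 2: gggccttattgatgtgttctaagtctttcc
CD53 probe 3: cttctggtattatctctctatcagataaga
MRC1 probe 1: aaagatctcgtgggcaatattgaacagaat
MRC1 probe 2: attctgagatatttgaatttcataaaattg
TYROBP: ccctgagagaccagaccgctccccaatact
AIF1: tgaaggggcttctaatgacccagatatgga
Over the whole 60 bases, 5 of the 51 member probes held either hexamer on the strand as listed (9.80%), against 7.07% of all named probes. The files give no usable genome position for these probes, so none is stated.

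Detection was read from the scanner's flag for signals well above background. A probe needed the flag on 50% or more of its spots, and a gene needed 1 such probe. On the pubertal array 17 of the 32 members were detected, or 53.1%, against 70.5% of all gene names. On the infant array 13 were detected, or 40.6%, against 69.5% of all gene names. Both shares were below those of the array as a whole. Detection on both arrays held for 12 members. The 5 members C1QB, FCGR3A, AIF1, FCGR2B and MRC1 were detected on the pubertal array alone, beside 4.21% of all gene names. LAPTM5 was detected on the infant array alone, beside 3.13% of all gene names. The other 14 members were detected on neither array, beside 26.3% of all gene names. The purity of the cultures was not tested. If a culture holds several cell types, its RNA cannot tell fewer cells of a type from less RNA per cell.

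Differences were computed for the 12 members detected on both arrays as pubertal minus infant log2 signal, each relative to the 75th percentile of its array. Signals are given in the scanner's intensity units before that scaling, and errors are those of the scanner software's error model, which takes in the array but not the culture. Of these 12 members, 5 passed 2-fold in favour of the pubertal array, among 7.32% of all 14243 genes measured on both. None of the 12 passed 2-fold the other way, among 6.32% of all genes measured. The difference was positive for 8 and negative for 4, and their median was 0.60, beside -0.06 over all genes measured. The 5 were CD163, CSF1R, PTPRC, CD53 and TYROBP.

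**Figure D1:**
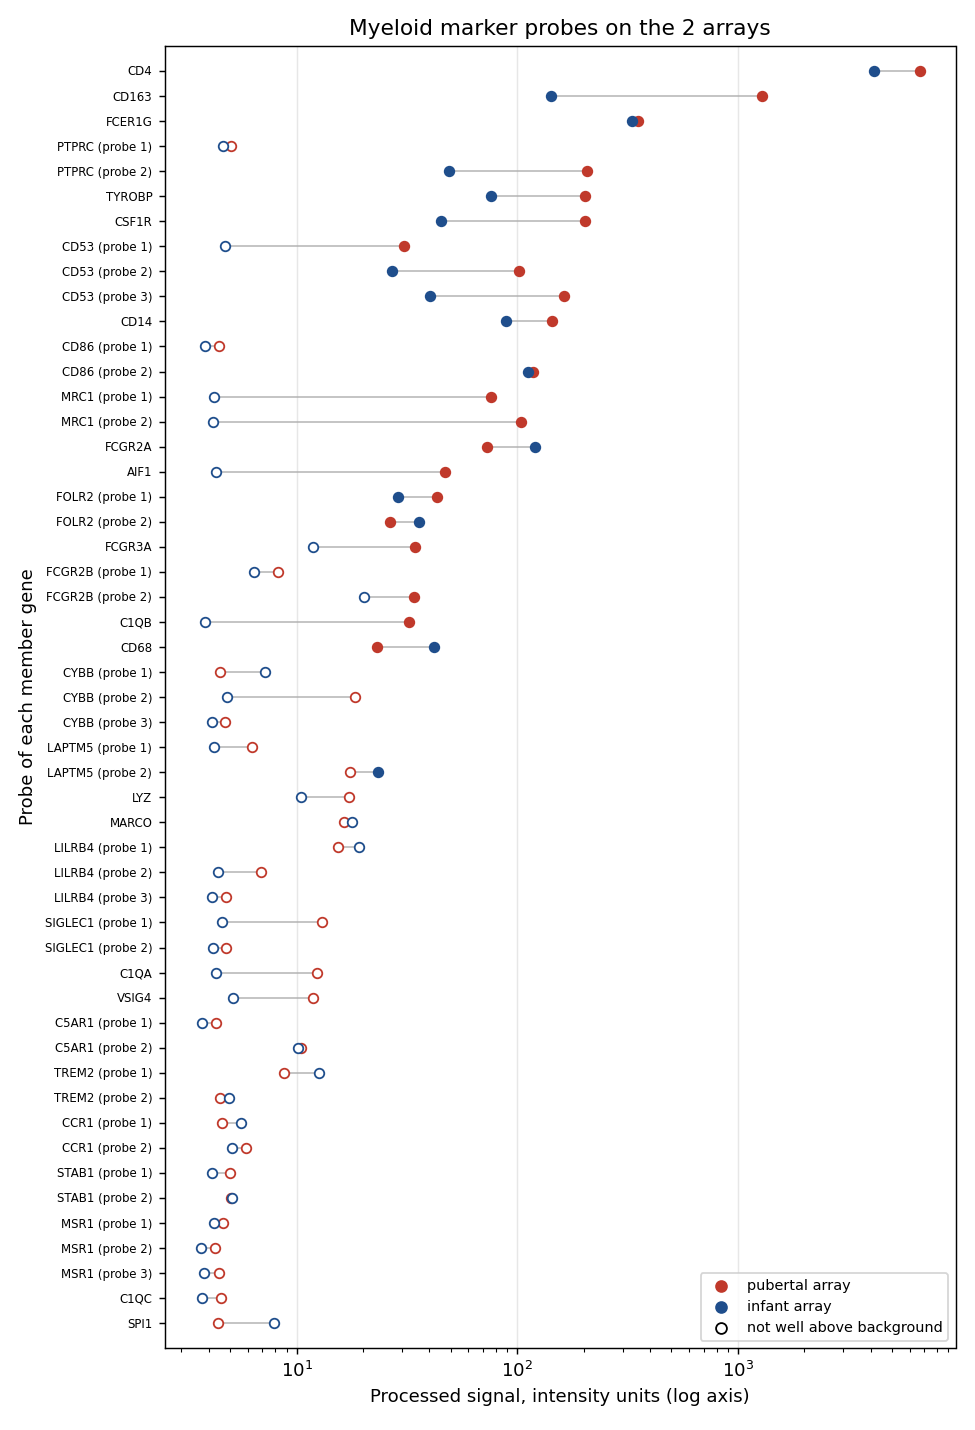
Processed signal in intensity units on a log axis (x) for each of the 51 member probes (y), with 1 red point for the pubertal and 1 blue point for the infant array. Filled points were well above background and open points were not. A grey line joins the points of a probe, and the longest lines between a filled red and an open blue point belong to MRC1, AIF1 and C1QB.

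The genes shared by leukocytes as a class were led by PTPRC and CD53. PTPRC encodes CD45, the receptor phosphatase present on nearly all nucleated blood cells. Its probe 2 read 207 in the pubertal and 48.9 in the infant culture, a difference of 1.99 ± 0.24 or 3.97-fold higher. Its probe 1, annotated to another transcript, read 5.07 and 4.62 and was not detected on either array. The PTPRC value therefore rests on 1 of its 2 probes.

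CD53, a tetraspanin of the leukocyte surface, was the one member printed many times on each array. Probe 2 had 10 usable spots on the pubertal array, from 92.9 to 112 with a median of 101, and 11 on the infant array, from 20.5 to 33.6 with a median of 25.7. Probe 3 had 9 usable spots on the pubertal array, from 151 to 185 with a median of 159, and 11 on the infant array, from 35.5 to 46.0 with a median of 39.2. For both probes the lowest pubertal spot lay above the highest infant spot. The gene was higher by 1.88 ± 0.28 on the pubertal array, or 3.68-fold, and the probes gave 3.57-fold and 3.80-fold. Probe 1 had 1 spot per array and was detected only on the pubertal array, at 30.5 against 4.76, which makes it at least 1.54-fold higher. The 3 pubertal member spots flagged as outliers were all CD53 spots and were left out. The spots of an array share their RNA, so their spread is that of the spot and not of the culture.

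**Figure D2:**
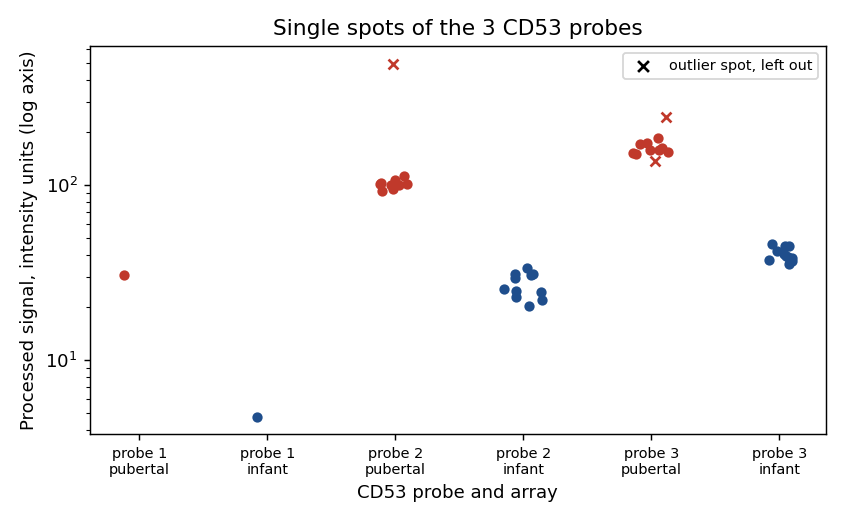
Processed signal in intensity units on a log axis (y) of every spot of the 3 CD53 probes on the pubertal and infant arrays (x). Each point is 1 spot, sideways scatter only separates the points, and crosses mark outlier spots that were left out. For probes 2 and 3 the pubertal spots (92.9 to 112 and 151 to 185) lie above the infant spots (20.5 to 33.6 and 35.5 to 46.0).

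LAPTM5, a lysosomal membrane protein of blood cells, read 17.4 in the pubertal and 23.3 in the infant culture through its probe 2, which was detected on the infant array alone. The bound puts its pubertal signal at least 1.19-fold lower (-0.25), which lies within the scanner software's error of 0.48. Its probe 1 read 6.28 and 4.21 and was detected on neither. SPI1, which encodes PU.1, a transcription factor that specifies myeloid cells, read 4.42 and 7.89 and was not detected.

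Among the growth factor and chemokine receptors, CSF1R was detected and CCR1 and C5AR1 were not. CSF1R, the receptor through which macrophages receive their survival signal, read 202.1 in the pubertal and 45.3 in the infant culture. It was higher by 2.07 ± 0.24, or 4.2-fold. The 2 probes of CCR1, a receptor for inflammatory chemokines, read 4.59 and 5.89 in the pubertal and 5.62 and 5.11 in the infant culture. Those of C5AR1, the receptor for complement fragment C5a, read 4.33 and 10.5 in the pubertal and 3.74 and 10.1 in the infant culture. None of these 4 probes was detected.

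The scavenger and pattern receptors held the largest difference and also both directions. CD163, which clears haemoglobin bound to haptoglobin and marks resident tissue macrophages, read 1279 in the pubertal and 142 in the infant culture. It was higher by 3.09 ± 0.21, or 8.49-fold, and 99.5% of all measured genes had a smaller value of this difference. MRC1, the mannose receptor, read 75.9 against 4.22 through probe 1, detected in the pubertal culture alone and at least 3.84-fold higher. Its probe 2 read 103.5 against 4.16, at least 5.24-fold higher. That spot lay in a disturbed area, where neighbouring spots differed between the arrays, so its fold is less sure than that of probe 1. A probe named MRC1L1, a synonym of MRC1 in the macaque gene table, was chosen after its values were seen. It read 42.1 and 9.84 and was likewise detected only in the pubertal culture, at least 2.13-fold higher.

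CD14, the co-receptor for bacterial lipopolysaccharide, read 143.0 and 88.7, a difference of 0.60 ± 0.22 or 1.52-fold. FOLR2, a folate receptor of tissue macrophages, gave probes of opposite sign. Probe 1 read 43.4 and 28.9 (0.50 ± 0.31) and probe 2 read 26.4 and 36.0 (-0.53 ± 0.37). Their mean of -0.02 ± 0.34 therefore hides a disagreement between the probes. CD68, a glycoprotein of macrophage lysosomes, read 23.2 in the pubertal and 41.8 in the infant culture, a difference of -0.94 ± 0.37 or 1.91-fold lower, which scaling on the spike-in controls turned to 0.03. CD68 thus differed in direction from CD163, and only 7.32% of all measured genes had a lower value of the difference.

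The remaining scavenger receptors were not detected. MARCO, a scavenger receptor for bacteria, read 16.4 and 17.8, and the 3 probes of MSR1, the class A scavenger receptor, lay between 4.27 and 4.63 in the pubertal and between 3.68 and 4.22 in the infant culture. The 2 probes of SIGLEC1, the sialic acid receptor sialoadhesin, read 13.1 and 4.76 in the pubertal and 4.57 and 4.18 in the infant culture. Those of STAB1, an endocytic receptor of macrophages and sinusoidal endothelium, read 4.99 and 5.06 in the pubertal and 4.15 and 5.11 in the infant culture. LYVE1, a hyaluronan receptor, is on the array only under its older symbol XLKD1, a probe chosen after its values were seen, which read 4.79 and 9.04 and was not detected.

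Of the complement genes, 1 of 4 was detected. C1QB, the B chain of C1q, read 32.4 in the pubertal and 3.84 in the infant culture and was at least 1.64-fold higher. C1QA and C1QC, which encode the other chains of the same molecule, read 12.3 and 4.56 in the pubertal and 4.29 and 3.74 in the infant culture, with neither detected. In the macaque gene table C1QB, C1QC and C1QA follow each other with 0 protein-coding genes between. VSIG4, a macrophage receptor for complement fragments of C3, read 11.9 and 5.13 and was not detected.

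The Fc receptors and their adaptors divided as well. TYROBP, the signalling adaptor of TREM2 and related receptors, read 202.2 in the pubertal and 76.3 in the infant culture and was higher by 1.32 ± 0.23, or 2.49-fold. FCER1G, the signalling gamma chain of Fc receptors, read 354 and 332, a difference of 0.00 ± 0.21. The adaptors therefore gave unlike values, and TREM2 itself, a lipid-binding receptor, was not detected through either probe (8.79 and 4.48 in pubertal RNA, 12.6 and 4.92 in infant RNA).

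FCGR2A, an activating receptor for immunoglobulin G, read 73.1 in the pubertal and 120.2 in the infant culture, a difference of -0.81 ± 0.23 or 1.75-fold lower, which spike-in scaling turned to 0.16. FCGR2B, the inhibitory receptor of the same family, was detected on the pubertal array alone through its probe 2, at 33.9 against 20.2. The infant signal lay above the dimmest detected signal, so the fold is the measured one, 0.66 ± 0.45 or 1.58-fold higher, and not a bound. Its probe 1 read 8.20 and 6.43 and was not detected. FCGR3A, which encodes CD16, read 34.2 and 11.9 and was at least 1.73-fold higher in the pubertal culture. These 3 genes lie close together in the macaque table, with 1 protein-coding gene between each neighbouring pair. Near-identical family members may share a human probe, which was not tested. A probe named FCGR3B, chosen after its values were seen, read 4.89 and 4.25 and was not detected. FCGR1A could be followed only through FCGR1B, a related gene chosen after its values were seen, which read 6.41 and 5.48 and was not detected. LILRB4, an inhibitory receptor of monocytes, was not detected through any of 3 probes, the brightest of which read 15.4 and 19.1.

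Among the effector and costimulatory genes, AIF1 was detected on the pubertal array alone. AIF1, a cytoplasmic calcium- and actin-binding protein widely used to stain macrophages and microglia, read 46.8 against 4.32 and was at least 2.37-fold higher. CD4, the T helper co-receptor that monocytes and macrophages of primates also carry, read 6657 and 4137, a difference of 0.60 ± 0.20 or 1.51-fold. CD86, a costimulatory ligand of antigen-presenting cells, read 118 and 111 through probe 2, a difference of -0.01 ± 0.22, while probe 1 read 4.47 and 3.84 and was not detected. Neither CD4 nor CD86 reached 2-fold. LYZ, lysozyme, read 17.3 and 10.4 and was not detected. CYBB, the catalytic subunit of the phagocyte oxidase, had 3 undetected probes between 4.48 and 18.4 in the pubertal and between 4.13 and 7.21 in the infant culture.

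**Figure D3:**
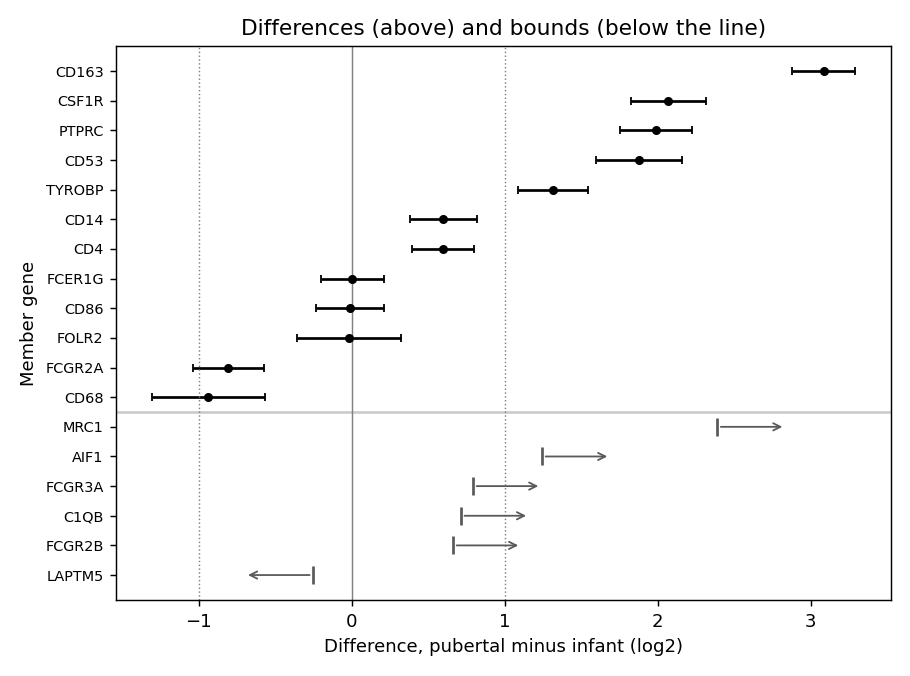
Difference in log2 signal, pubertal minus infant (x), for the members (y). Points with bars above the grey line are the 12 members detected on both arrays with the scanner software's error. Arrows below it start at the bound for the 6 members detected on 1 array, and dotted lines mark 2-fold. The bound is that of the probe with the largest one, which for MRC1 is probe 2, in a disturbed area. For FCGR2B it is the measured difference. CD163, CSF1R, PTPRC, CD53 and TYROBP lie beyond the right dotted line and none beyond the left.

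The undetected members set only limits. The 25 probes of the 14 members detected on neither array read from 4.27 to 18.4 in the pubertal and from 3.68 to 19.1 in the infant culture. The dimmest detected probe of any named gene read 20.8 and 18.6 on these arrays. A transcript that the human probe binds poorly cannot be told apart here from one that is scarce. Under the scanner's weaker flag, for signals positive and significant against background, 27 members were detected in the pubertal and 24 in the infant culture, with 2 detected on neither. Of all gene names, the same flag detected 84.1% and 84.4%, with 11.1% on neither array.

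Placed among all measured genes, the 12 members spread over almost the whole range. The share of measured genes with a lower value of the difference was 98.5% for CSF1R, 98.3% for PTPRC, 98.0% for CD53 and 95.6% for TYROBP. It was 85.3% for CD14 and 85.2% for CD4, between 52.8% and 54.5% for FOLR2, CD86 and FCER1G, and 9.94% for FCGR2A. CD163 and the members near it are thus far into the upper end, those of the middle group are near the median gene, and FCGR2A and CD68 are in the lower end.

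**Figure D4:**
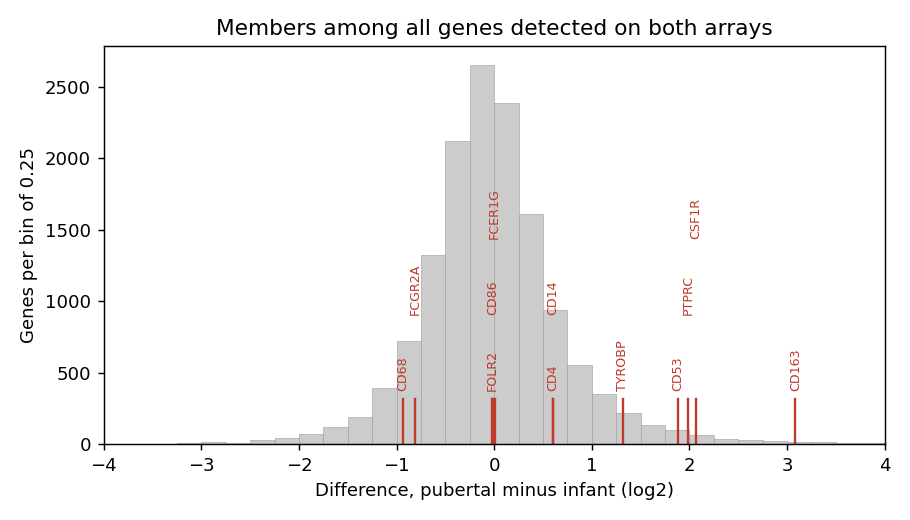
Number of genes (y) in bins of the log2 difference, pubertal minus infant (x). Grey bars hold all 14243 genes with a probe detected on both arrays, and red lines mark the 12 members. The axis leaves out 11 genes below -4 and 31 above 4. CD163 at 3.09 lies farthest to the right of the members and CD68 at -0.94 farthest to the left.

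CD163, CSF1R, PTPRC, CD53, TYROBP, CD14 and CD4 were positive under every scaling tried, while the sign of the members near or below 0 moved with it. Scaling each array on its median lowered every difference by a fixed amount, put the median of all genes at -0.22, and moved the upward share of 2-fold calls from 53.7% to 37.6%. Under it CD68 passed 2-fold downward, at -1.10, and FCER1G turned negative, at -0.15. Scaling on 7 spike-in control probes raised every difference by 0.97, put the median of all genes at 0.91 and made 98.0% of the 2-fold calls upward. On that scale CD86, FOLR2, FCGR2A and CD68 were positive. With normexp background correction, which adds an offset of 50, CD53 (0.91) and TYROBP (0.76) were no longer 2-fold higher.

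A second list held 69 other genes of the myeloid lineage, of which 66 were on the array. On the pubertal array 31 were detected (47.0%) and on the infant array 27 (40.9%), beside 70.5% and 69.5% of all gene names. Both arrays detected 25 of them. Of these 25, 3 lay 2-fold or more above and 3 lay 2-fold or more below the infant level. Over all genes measured, 7.32% lay above and 6.32% below by that much. The median of the 25 was -0.05, close to that of all genes measured. FGR, a Src-family kinase of myeloid cells, read 120 and 29.7 and was 3.79-fold higher. TLR4, the receptor that signals with CD14, read 52.1 and 23.2 and was 2.11-fold higher. CEBPB, a transcription factor of macrophages and of many other cells, read 6248 and 13780 and was 2.43-fold lower. SLC11A1, a metal transporter of phagosomes, was 2.19-fold lower, and ALOX5AP, which serves leukotriene synthesis, was 2.10-fold lower. The 25 genes detected on both arrays did not, as a set, lie to one side.

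Of the 66 genes of that list, 6 were detected in the pubertal culture alone, beside 4.21% of all gene names. In the infant culture alone 2 were detected, beside 3.13% of all gene names. LAIR1, an inhibitory collagen receptor of leukocytes, read 84.0 and 19.3, and its measured signal was 4.09-fold higher in the pubertal culture. RNASE6, a secreted ribonuclease of myeloid cells, was at least 3.08-fold higher (60.8 and 9.78). IRF8, a transcription factor of monocytes and dendritic cells, was at least 2.56-fold higher (50.7 and 3.70). CLEC10A, a galactose-binding lectin of dendritic cells and macrophages, was at least 1.99-fold lower (5.12 and 39.0). FPR1, the formyl peptide receptor, was at least 1.01-fold lower (17.9 and 19.8), a bound with no allowance for error.

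The ligands that recruit, sustain or restrain macrophages were followed through 19 of 20 genes on the array. Of them 12 (63.2%) were detected in the pubertal and 10 (52.6%) in the infant culture, beside 70.5% and 69.5% of all gene names. The 10 detected on both had a median of -0.06. Of these 10, 2 passed 2-fold upward and 1 downward, beside 7.32% and 6.32% of all genes measured. CSF1, the ligand of CSF1R, read 141 in the pubertal and 65.9 in the infant culture and was 2.14-fold higher. CCL4, a chemokine for monocytes and T cells, read 335 and 134 and was 2.35-fold higher. CCL2, the main monocyte chemokine, read 5995 and 11294 and was 2.00-fold lower, at the threshold itself. CD200, which restrains myeloid cells through its receptor, was 1.7-fold lower, although spike-in scaling turned its sign. CD47, which signals against engulfment, was 1.67-fold higher. CXCL12 and C5, a chemokine and a complement component, were detected only in the pubertal culture. C5 was at least 1.60-fold higher, and the measured signal of CXCL12 was 1.85-fold higher through 1 of its 5 probes.

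Markers of other cell types were counted the same way, and their part in the member values was not tested. The cells' own markers were present, since 18 of 18 Sertoli cell genes were detected on both arrays, with 5 at least 2-fold higher and 1 lower and a median of 0.43. CLU and TF, secretory products of Sertoli cells, were 1.64-fold and 9.96-fold higher on the pubertal array. T cell genes were detected for 5 of 15 on each array, and 0 of the 4 detected on both reached 2-fold (median -0.57, with CD8A at 68.5 and 91.5 and CD3E at 59.9 and 87.9). B and plasma cell genes were detected for 3 of 11 on each array, among them CD79A at 3159 and 2551.

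Natural killer cell genes were detected for 2 of 9 on each array, beside the same 70.5% and 69.5% of all gene names. Among them GZMB read 49.8 and 56.0, and NKG7 was detected only in the infant culture, at 99.9 there and 10.6 in the pubertal culture, which was at least 5.10-fold lower. Mast cell genes were detected for 3 of 7 in the pubertal and 1 of 7 in the infant culture, with TPSB2 at 119 and 101 and HDC at least 2.47-fold higher in pubertal RNA. None of 9 granulocyte genes was detected on either array, and the brightest, AZU1 and S100A12, read 20.2 and 4.78 in the pubertal and 5.84 and 14.5 in the infant culture. Erythroid genes were detected for 2 of 8 in the pubertal and 4 of 8 in the infant culture, led by HBA2 (92.3 and 61.6) and ALAS2 (40.8 and 48.1). Endothelial genes were detected for 11 of 19 in the pubertal and 10 of 19 in the infant culture, with 2 at least 2-fold higher and 1 lower of 10, a median of 0.14, EGFL7 2.64-fold higher and MMRN2 1.02-fold higher.

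**Figure D5:**
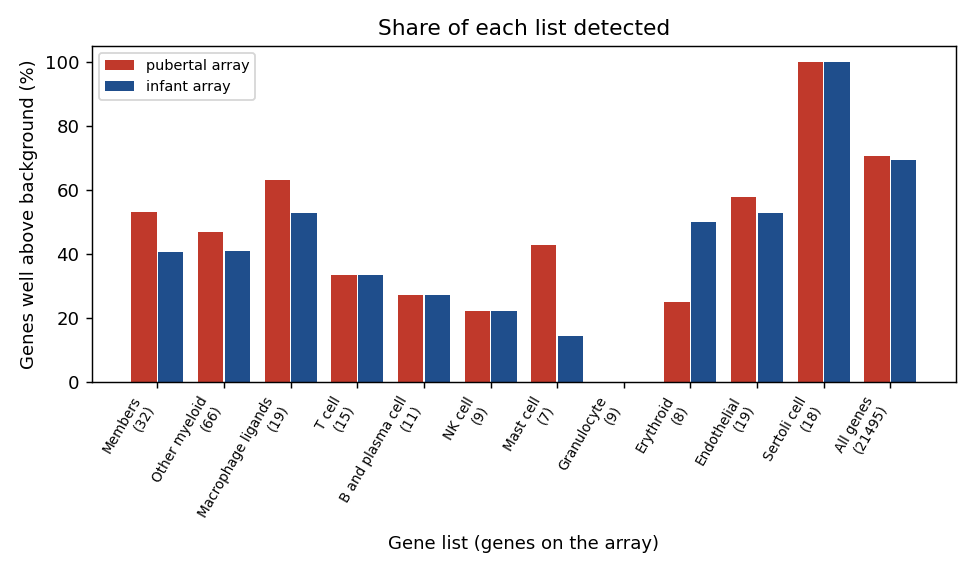
Percent of the genes of each list detected (y) on the pubertal array in red and the infant array in blue, by gene list (x, with the number of its genes on the array). The members stand at 53.1% and 40.6%, all genes at 70.5% and 69.5%, and the granulocyte genes at 0 on both arrays.

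The arrays themselves were close in the share of spots detected and in the spread of repeated spots. They were less alike on the spike-in controls, since scaling on these raised every difference by 0.97. Signals well above background made up 54.9% (pubertal) and 54.8% (infant) of the gene spots, with no spot saturated. Spots of the same probe varied with a median SD of 0.09 on each array over 78 replicated probes.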

How the data were processed

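Total RNA from 1 pubertal and 1 infant culture was labelled with Cy3 and hybridised to Agilent arrays of human design, per the labels' protocols and the file headers. Both arrays shared a slide and a scan. The authors deposited the intensity of each spot from Agilent Feature Extraction 10.5.1.1, as named in the submitters' processing notes. The software subtracted background and removed a spatial trend within each array, per the file headers, which record no scaling between arrays. The match of the human probes to monkey transcripts was not measured, and its effect on levels and differences was not tested.

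Outlier spots (96 pubertal, 91 infant) and control spots were left out. The log2 of the deposited intensity was taken, the 75th percentile of each array (406.7 and 382.4 units) subtracted, and spots of a probe averaged. Probes of a gene detected on both arrays were averaged. For a probe detected on 1 array, the fold is a bound, taken against the dim array's lowest detected log2 signal (-4.29 pubertal, -4.36 infant) or the probe's own signal there, whichever is higher. Where the probe's own signal was higher, as for FCGR2B, LAIR1 and CXCL12, the fold is the measured one. Neither the bounds nor these measured folds make an allowance for error. A call was a difference of at least 2-fold, with no p-value. The members and all lists were chosen with earlier results of these data known. All members are named. In the other myeloid and ligand lists, the 5 largest differences and the 3 largest bounds in each direction are named, and in every other list the 2 genes of highest signal, of which 1 is not reported here. Macaque names came from the RefSeq table, in which 33 of 34 members are symbols and 1, FCGR3A, is a synonym.

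Alternatives were a weaker flag, stricter spot and probe rules for detection, outlier spots kept, disturbed areas left out, scaling on the median, on detected probes or on spike-ins, quantile normalization, normexp with an offset of 50, the brightest probe, no filter on dim probes, and thresholds of 1.5- and 4-fold. Disturbed areas, whose limits were known from the spots, were spots with 2 or more neighbours (distance up to 2.3 grid units) over 4 log2 apart in the same direction, or with 6 or more dim neighbours (up to 4.2 units) of median difference beyond 1.5. They took 773 of 52857 spots (1.46%). The functions were tested on simulated data. Python 3.11.15, numpy 2.4.6, pandas 2.3.3, R 4.3.3 and limma 3.58.1 were used. The number of arrays limits the precision.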

Additional observations from a re-analysis of the deposited data

How the results depend on the processing

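Detection counts of the members were the same with outlier spots kept and without disturbed areas. Requiring every spot, or at least 50% of a gene's probes, could move no member, since CD53 alone had several spots per probe, all flagged on the detected probes, and every detected member had at least 50% of its probes detected. The weaker flag gave 27 members on the pubertal array, 24 on the infant array, 3 on the infant array alone and 2 on neither, beside 84.1%, 84.4%, 4.82% and 11.1% of all gene names. The number of members at least 2-fold higher was 3 with normexp, 7 of 12 with spike-in scaling and 11 of 32 with no filter on dim probes. It was 7 at 1.5-fold and 2 at 4-fold (CD163 and CSF1R). The count with spike-in scaling stood beside 43.7% of all genes measured. Members at least 2-fold lower were 1 with median scaling, 1 with quantile normalization and 2 at 1.5-fold. Over all genes measured, the shares higher and lower were 5.51% and 9.16% with median scaling, 6.85% and 6.39% with quantile normalization, 8.38% and 5.31% with scaling on detected probes, 43.7% and 0.906% with spike-in scaling, 3.88% and 3.99% with normexp, 9.68% and 6.91% with no filter, 15.04% and 16.8% at 1.5-fold, and 1.67% and 0.857% at 4-fold. Of the other myeloid genes, those higher numbered 1 with median scaling, 1 with quantile normalization, 5 with scaling on detected probes, 11 with spike-in scaling, 0 with normexp, 9 with no filter, 7 at 1.5-fold and 0 at 4-fold. Those lower numbered 0 with spike-in scaling, 1 with normexp, 6 with no filter and 0 at 4-fold. Of the ligands, those higher numbered 1 with median scaling, 1 with quantile normalization, 5 with spike-in scaling, 0 with normexp, 4 at 1.5-fold and 0 at 4-fold. Ligands lower numbered 2 at 1.5-fold, and 0 with outlier spots kept, scaling on detected probes, quantile normalization, spike-in scaling, normexp and 4-fold. Spike-in scaling moved the medians to 1.57 for the members, 0.92 for the other myeloid genes and 0.91 for the ligands. Over the 9 alternatives for single members, CD163 ranged from 2.67 to 4.05, CSF1R from 1.17 to 3.04, PTPRC from 1.02 to 2.96, CD53 from 0.91 to 2.85, TYROBP from 0.76 to 2.29 and CD68 from -1.10 to 0.03. No replicate could be left out with 1 array per group. No paired analysis was possible because each group held 1 array. Signal over background limited 14 members to no value and 6 to a bound.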

Other observations

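The median GC content of the 51 member probes was 45%, from 31.7% to 58.3%, against 43.3% over all named probes. It was 41.7% over the 22 member probes detected on an array and 45% over the 29 detected on none. A hexamer AATAAA or ATTAAA on the listed strand was in 3 of these 22 and in 2 of these 29 probes. A pair of LILRB4 probes shared a run of at least 16 bases with each other and with LILRB1. On the opposite strand, such a run was shared by an AIF1 probe with SYT15 and by an FCGR2B probe with BCAP29.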
